A study of Mus musculus with 14 samples.

Results

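MHC class I molecules carry short peptides from inside a cell to its surface, where cytotoxic T cells and natural killer cells read them. Each molecule is a heavy chain paired with β2-microglobulin, and it is loaded in the endoplasmic reticulum with peptides that proteasomes cut and the TAP transporter carries in. Interferons raise the whole pathway in most tissues, through the transactivator NLRC5 and interferon regulatory factors. Class I molecules are also known in the brain, where they are low in developing neurons and take part in the refinement of synapses.

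The set described here held 9 genes of 56941 in the tables, chosen by name for these steps. They were the classical heavy chains H2-K1 and H2-D1, the light chain B2m, the transporter subunits Tap1 and Tap2, the loading chaperone Tapbp (tapasin), the interferon-inducible proteasome subunits Psmb8 and Psmb9, and the transactivator Nlrc5. All 9 were found in the tables and all 9 passed the filter on low counts in every comparison. In GENCODE M21, 7 of them lie in or beside the MHC on chromosome 17, with B2m on chromosome 2 and Nlrc5 on chromosome 8.

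RNA-seq of mouse embryonic forebrain was deposited as 14 libraries, 6 of them prepared from telencephalon at E12.5 (E, embryonic day) and 8 from the cortex at E18.5. The comparison was between floxed embryos (ff; 3 libraries at E12.5 and 4 at E18.5) and double conditional knockouts (dcKO; 3 and 4), which carry Emx1-Cre in addition to the floxed alleles of Sbno1 and Trp53. Sbno1 is a homologue of the fly gene strawberry notch and Trp53 encodes p53. Emx1-Cre acts in progenitors of the dorsal telencephalon and the cells they give rise to, and microglia, vessels and interneurons of ventral origin are outside its known range. No group had the driver alone or a single deletion, so the driver and either deletion cannot be told apart. All groups share the floxed alleles, as far as the labels say, and the strain is not named. The labels do not say whether replicates were separate embryos, so p-values measure the spread between these libraries.

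Depth, as total expected counts, was 4.92 M in the shallow ff replicate 1 of E12.5 and 42.0 to 67.4 M in the rest of that stage. Among the E18.5 libraries it was 5.98 M for dcKO replicate 1 and 48.6 to 82.0 M for the others. Replicates are numbered by column order. The groups come from the column names, because 11 of 14 samples carry the library name of another group in their description. Sbno1 was lower in dcKO at E12.5, at 70.1 ± 5.76 against 105.5 ± 9.28 CPM (SD, n = 3 each), but not at E18.5, at 72.3 ± 4.24 against 73.5 ± 1.31 CPM (SD, n = 4 each), so the E18.5 group is called the libraries labelled dcKO. Whole-gene counts include exons that remain after deletion. Emx1, the gene whose regulatory elements drive the Cre, was lower with the label at both stages and without overlap, at 31.9 ± 1.47 against 62.3 ± 4.42 CPM at E12.5 (SD, n = 3 each) and 15.1 ± 0.882 against 26.4 ± 1.26 CPM at E18.5 (SD, n = 4 each). Trp53 at E18.5 was at 58.4 to 72.6 CPM in the libraries labelled dcKO and 71.9 to 77.4 CPM in ff, with overlap. At E12.5 it was at 103.0 to 107.6 CPM in dcKO and 105.5 to 135.2 CPM in ff, also with overlap. Every library labelled dcKO was male by chromosome Y genes and Xist, while ff replicate 3 at E12.5 and ff replicates 2 and 4 at E18.5 were female. The neuron and radial glia markers of the cortex were present in every library, and choroid plexus markers summed to 12.8 TPM in replicate 3 labelled dcKO at E18.5 against 1459 to 3330 TPM in the other 7 libraries of that stage. Erythroid markers summed to 679.0 and 594.4 TPM in replicates 1 and 3 labelled dcKO and to 2579 to 6194 TPM in the other 6.

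The promoters of the heavy chains, B2m and Tap1 are shown because class I genes are known to be switched on together through shared promoter letters. RefSeq promoter sequences (build GRCm38.p6) were given for 7 of the 9 members. Tap2 and Nlrc5 had no entry. The 250 bases before the transcription start are printed 5′ to 3′ on the gene's own strand. Capitals mark 4 of 6 motifs searched on both strands: the κB element GGGGATTCCCC bound by NF-κB proteins, the repeat AANNGAAA of interferon regulatory factor sites, the core TGACG of the X2 box bound by CREB and ATF proteins, and the CCAAT box bound by NF-Y. The build the authors used is not given in the sources used here, and these coordinates are RefSeq's.
H2-K1 (chr17:34000334-34000583, minus strand, the second of its 2 annotated starts): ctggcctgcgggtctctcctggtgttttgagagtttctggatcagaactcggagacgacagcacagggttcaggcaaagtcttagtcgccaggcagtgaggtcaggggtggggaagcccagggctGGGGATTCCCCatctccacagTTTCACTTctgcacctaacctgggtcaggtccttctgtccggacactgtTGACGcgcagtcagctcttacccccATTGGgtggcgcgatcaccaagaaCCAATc
H2-D1 (chr17:35262844-35263093, plus strand): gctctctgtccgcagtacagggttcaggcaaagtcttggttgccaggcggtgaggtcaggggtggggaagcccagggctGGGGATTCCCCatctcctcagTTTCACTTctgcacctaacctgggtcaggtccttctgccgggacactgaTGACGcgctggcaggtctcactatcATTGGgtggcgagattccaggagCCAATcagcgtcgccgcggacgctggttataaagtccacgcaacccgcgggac
B2m (chr2:122147437-122147686, plus strand): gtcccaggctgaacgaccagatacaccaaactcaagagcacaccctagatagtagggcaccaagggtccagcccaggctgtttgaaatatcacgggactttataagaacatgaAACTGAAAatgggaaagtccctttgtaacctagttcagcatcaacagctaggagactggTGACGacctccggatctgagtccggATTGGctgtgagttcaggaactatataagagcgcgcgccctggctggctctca
Tap1 (chr17:34187306-34187555, plus strand): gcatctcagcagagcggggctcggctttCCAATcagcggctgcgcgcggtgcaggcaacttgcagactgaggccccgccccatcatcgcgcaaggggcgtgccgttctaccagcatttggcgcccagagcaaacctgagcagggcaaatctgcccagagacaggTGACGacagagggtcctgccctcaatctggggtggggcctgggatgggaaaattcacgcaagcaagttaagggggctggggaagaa

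The H2-K1 and H2-D1 stretches matched at 177 of 203 aligned bases (87.2%) and held all 4 motifs in the same order. The κB letters stood in 10 of 32851 RefSeq promoter stretches of the same length (0.0304%), from 9 gene symbols. Of those symbols 3 were class I heavy chain genes (H2-K1, H2-D1 and H2-Q6). The exact κB letters were read from the H2-K1 stretch itself. Their presence in H2-K1 was thus given in advance, and H2-D1 is closely alike, so the share is no independent test for these genes. The interferon regulatory factor repeat stood in H2-K1, H2-D1 and B2m and in 21.3% of all stretches. The X2 core stood in H2-K1, H2-D1, B2m, Tap1 and Psmb9 and in 17.8% of all. The CCAAT letters stood in those 5 and in Tapbp, and in 33.8% of all. In H2-K1, H2-D1 and B2m the X2 core was followed 25 bases further, counted from first base to first base, by the reversed CCAAT letters. That spacing, picked after the sequences were seen, occurred in 30 of the 32851 stretches (0.0913%), H2-M3 among them. Tap1 and Psmb9 are transcribed in opposite directions from starts 226 bases apart, so their stretches shared 225 bases and the same X2 core and CCAAT letters. Psmb8 held none of these 4, which says nothing of other letters in its promoter. These matches describe the letters only.

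**Figure D1:**
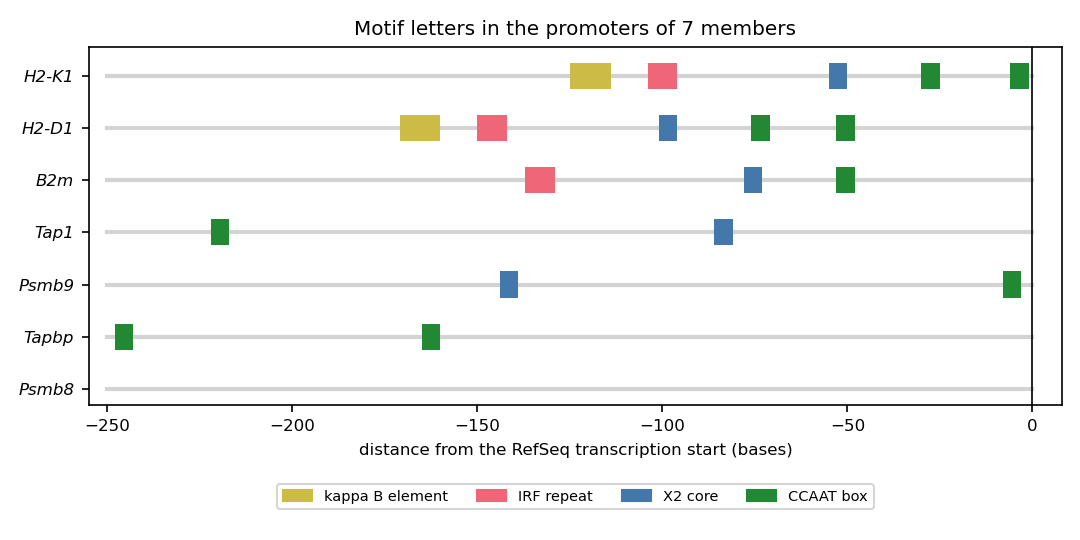
Positions of the 4 motifs in the 250 bases before the RefSeq transcription start of 7 members (x axis, bases from the start at 0; 1 line per gene; coloured boxes, motif letters on either strand). H2-K1 and H2-D1 hold the same series of boxes, shifted against each other, and the X2 core and CCAAT boxes of B2m keep the spacing seen in both heavy chains.

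Per transcript length, B2m was the most abundant member in all 4 groups. In ff at E18.5 the mean level of B2m was 44.9 ± 7.6 TPM (SD, n = 4), followed by Tapbp at 22.7 ± 1.22, H2-D1 at 15.5 ± 1.07 and H2-K1 at 8.10 ± 1.5 TPM. The ranges of these neighbours did not overlap between libraries. The inducible part of the set was far lower, with Tap1 at 2.18 ± 0.424, Psmb8 at 1.63 ± 0.537, Tap2 at 1.08 ± 0.332, Psmb9 at 0.680 ± 0.256 and Nlrc5 at 0.340 ± 0.121 TPM (SD, n = 4). Neighbours among these 5 overlapped. In the libraries labelled dcKO at E18.5, H2-D1 stood second at 29.4 ± 10.8 TPM and overlapped Tapbp at 23.2 ± 0.658 TPM. At E12.5 the heavy chain H2-K1 stood second in both groups, at 20.6 ± 2.38 TPM in ff and 27.5 ± 3.33 TPM in dcKO (SD, n = 3 each), and overlapped the next gene in the order.

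At E18.5, 6 of the 9 members rose in the libraries labelled dcKO and none fell by edgeR's quasi-likelihood test. Both heavy chains, the light chain, the transporter subunit Tap1 and both inducible proteasome subunits were called, with fold changes of 1.43 to 2.20, while Tap2, Tapbp and Nlrc5 did not pass. Of all 17974 genes tested 32.2% were called, 15.6% higher and 16.6% lower. The median log2 fold change of the 9 members was 0.82, beside 0.03 for all genes. On the authors' TPM values, as log2(TPM + 1), all 9 members were above 0 with a median of 0.66. But 12490 of all 17974 genes were above 0 on that scale too, and their median was shifted to 0.12. Tapbp and Nlrc5 lay below that median. There 76.7% of calls were higher, against 48.5% on counts. In these bulk samples, more cells of a type and more RNA per cell cannot be told apart.

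H2-K1 (ENSMUSG00000061232.17), which presents peptides to cytotoxic T cells, was at 5.02, 3.55, 3.96 and 5.27 CPM in ff replicates 1 to 4. In replicates 1 to 4 labelled dcKO it was at 8.63, 10.3, 5.68 and 11 CPM. Replicate 3 was the lowest of that group, yet above every ff library. The log2 fold change, given with its standard error (SE) and its Benjamini-Hochberg (BH) adjusted p, was 1.01 (± 0.21 SE, BH-adjusted p = 0.0036 by edgeR).

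H2-D1 (ENSMUSG00000073411.13), the other classical heavy chain, was at 16.3, 14.1, 14.5 and 15.7 CPM in ff and at 20.5, 33.6, 16.6 and 35.7 CPM in the libraries labelled dcKO. Replicates 2 and 4 were far above the others, and replicate 3 lay just above the highest ff library. The log2 fold change was 0.84 (± 0.25 SE, BH-adjusted p = 0.039 by edgeR). This call was the least firm of the 6: it held in 2 of the 8 fits with 1 library left out, with adjusted p from 0.0014 to 0.11 in edgeR and log2 fold changes from 0.65 to 1.02. The fits that kept it were those without replicate 1 or without replicate 3 labelled dcKO. It was also lost by limma-voom (adjusted p = 0.056) and with no filter on low counts (adjusted p = 0.10 in edgeR).

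B2m (ENSMUSG00000060802.9), the light chain shared by all class I heavy chains, was at 18.4, 13.3, 16.6 and 20.4 CPM in ff. It was at 28.3, 24.6, 20.6 and 25.6 CPM in the libraries labelled dcKO. The 2 groups came close, with ff replicate 4 and replicate 3 labelled dcKO nearly level. The log2 fold change was 0.52 (± 0.13 SE, BH-adjusted p = 0.011 by edgeR), the smallest of the 6 calls.

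Tap1 (ENSMUSG00000037321.18), a subunit of the peptide transporter, was at 3.26, 2.59, 2.73 and 3.6 CPM in ff and at 3.52, 7.28, 4.55 and 5.56 CPM in the libraries labelled dcKO. The groups overlapped, because the shallow replicate 1 labelled dcKO lay below ff replicate 4. The log2 fold change was 0.82 (± 0.19 SE, BH-adjusted p = 0.0065 by edgeR). Its partner Tap2 (ENSMUSG00000024339.13) was at 1.52, 0.968, 1.47 and 1.95 CPM in ff and at 2.24, 2.36, 1.56 and 2.46 CPM in the libraries labelled dcKO. Only replicate 3 lay within the ff range. Tap2 had a log2 fold change of 0.54 (± 0.24 SE, BH-adjusted p = 0.10 by edgeR) and did not pass.

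Tapbp (ENSMUSG00000024308.16), which holds empty class I molecules at the transporter, was nearly level across libraries, at 29.7, 28.5, 29.0 and 29.1 CPM in ff and at 28.6, 29.0, 26.2 and 28.0 CPM in the libraries labelled dcKO. Its log2 fold change was -0.06 (± 0.06 SE, BH-adjusted p = 0.47 by edgeR), with a 95% interval from -0.19 to 0.07. That interval lay below the change of each of the 6 called members.

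Psmb8 (ENSMUSG00000024338.16), an inducible catalytic subunit that takes the place of Psmb5 in the immunoproteasome, was at 0.967, 0.675, 0.985 and 0.788 CPM in ff. It was at 2.24, 2.32, 1.25 and 1.68 CPM in the libraries labelled dcKO, all above ff (log2 fold change 1.10, ± 0.25 SE, BH-adjusted p = 0.0053 by edgeR). Psmb9 (ENSMUSG00000096727.4), which takes the place of Psmb6, was at 0.293, 0.293, 0.483 and 0.469 CPM in ff and at 1.28, 0.853, 0.708 and 0.760 CPM in the libraries labelled dcKO. The groups did not overlap, and the log2 fold change was 1.14 (± 0.31 SE, BH-adjusted p = 0.013 by edgeR). The shallow replicate 1, with 8 expected counts of Psmb9, held its highest value.

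Nlrc5 (ENSMUSG00000074151.14), the transactivator of class I genes, was at 0.345, 0.408, 0.502 and 0.394 CPM in ff and at 0.640, 0.694, 0.435 and 0.780 CPM in the libraries labelled dcKO. Replicate 3 again lay within the ff range. The log2 fold change was 0.62 (± 0.29 SE, BH-adjusted p = 0.12 by edgeR), with a 95% interval from -0.01 to 1.25. Between 4 and 40 expected counts per library stood behind these levels. In TPM its means were close, at 0.340 ± 0.121 (SD, n = 4) in ff and 0.392 ± 0.142 (SD, n = 4) with the dcKO label, and on log2(TPM + 1), which understates changes of low genes, the difference was 0.05 (adjusted p = 0.73 in limma).

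Groups did not overlap, with the libraries labelled dcKO higher, for 5 members: H2-K1, H2-D1, B2m, Psmb8 and Psmb9. Over all genes tested 16.1% did so in that direction. Replicate 3 labelled dcKO was the lowest of its group for 8 of 9 members, and ff replicate 2 for 8 of 9. Replicates 2 and 4 labelled dcKO held the highest value for 3 and 4 members. H2-K1, B2m, Tap1, Psmb8 and Psmb9 were called in all 8 fits with 1 library left out. With replicates 1 and 3 labelled dcKO both left out, because of their depth and their choroid plexus and erythroid markers, 6 members were called. Leaving out the lowest library of a group raises the fold changes by construction, here to 1.26 on the log2 scale for H2-K1 and 1.19 for H2-D1, so this count adds no support to the calls. In GENCODE M21 exons of Tap1 and Psmb9 overlap on opposite strands, and exons of Tap2, Psmb8, Tapbp and Nlrc5 overlap those of other genes. The strand used for counting is not given in the sources used here, which leaves the levels of these 6 uncertain to that extent.

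Sex was uneven between the groups, and with sex as a covariate 3 members were called, H2-K1, Tap1 and Psmb8. H2-D1 (adjusted p = 0.14), B2m (0.060) and Psmb9 (0.058) missed the threshold in edgeR there, with log2 fold changes of 0.81, 0.49 and 1.12. In male libraries alone 3 were called, H2-K1, B2m and Tap1, with H2-D1 at 0.78 (adjusted p = 0.23 in edgeR), Psmb8 at 0.88 (0.063) and Psmb9 at 1.10 (0.072). In the authors' deposited table the same 6 members had an adjusted p under 0.05 at E18.5, with log2 fold changes from 0.44 (B2m) to 0.91 (Psmb8). Each was smaller than the edgeR value for all libraries. The settings behind the authors' fold changes are not given, so the sizes may not be comparable.

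**Figure D2:**
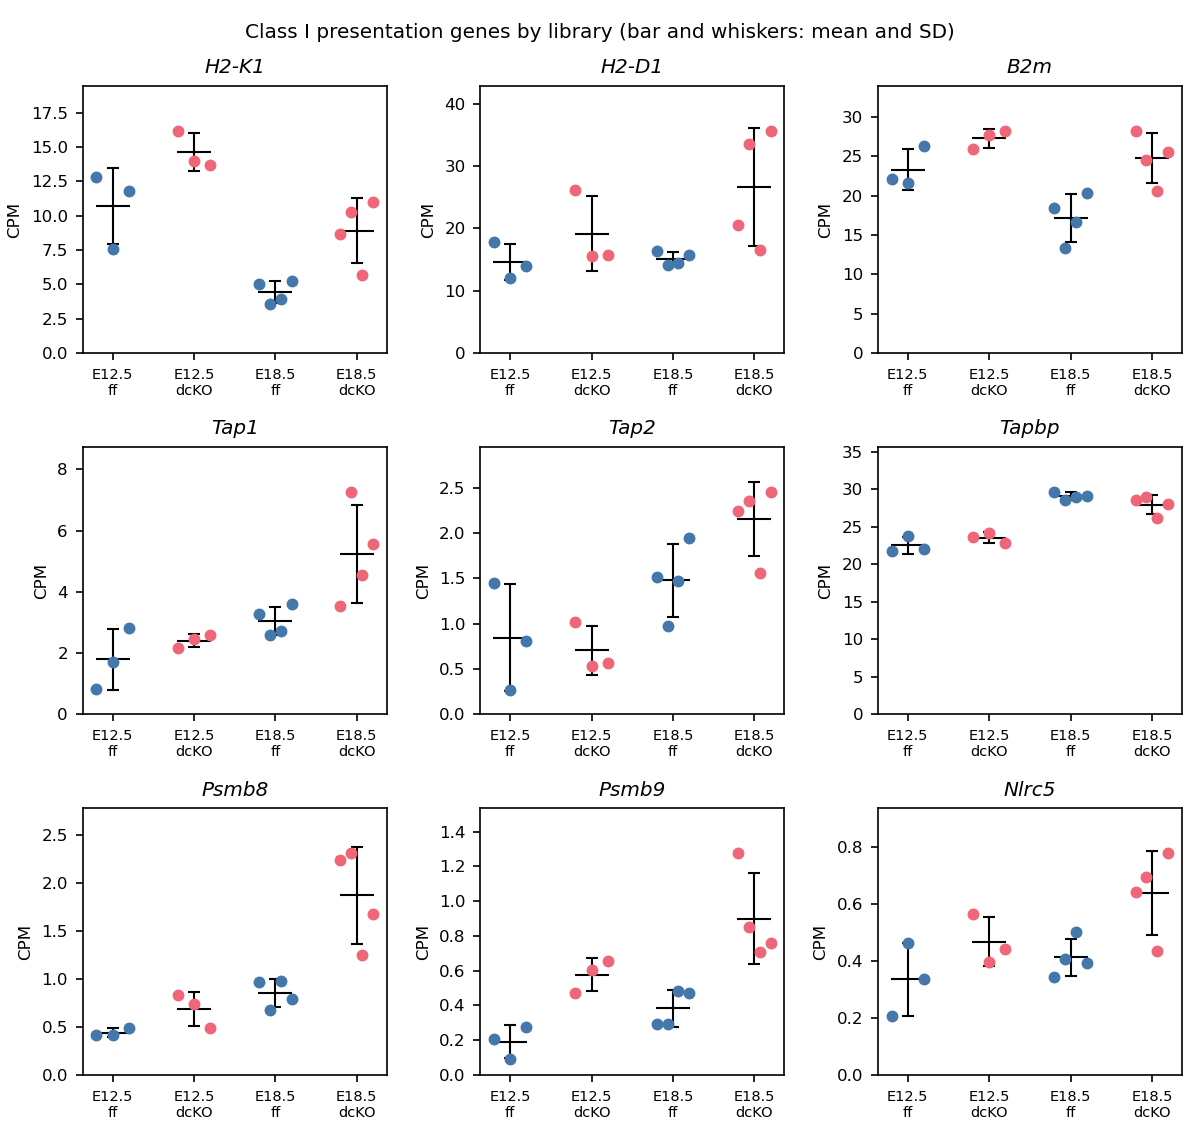
Normalised read counts (CPM, y axes from 0) of the 9 members in each library of the 4 groups (points; black bar and whiskers, mean and SD; n = 3 per group at E12.5 and 4 at E18.5, each stage scaled on its own). At E18.5 the dcKO points of H2-K1, H2-D1, B2m, Psmb8 and Psmb9 lie above all ff points, while those of Tapbp do not.

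At E12.5 none of the 9 members was called by edgeR's test, with 2 at an unadjusted p under 0.05, and DESeq2 and limma-voom also called 0. Over all 17853 genes 0.190% were called. All 9 fold changes were above 0, with a median of 0.31 on the log2 scale beside 0.01 for all genes. H2-K1 was at 12.8, 7.55 and 11.8 CPM in ff and at 16.2, 14 and 13.7 CPM in dcKO, without overlap (log2 fold change 0.49, ± 0.19 SE, BH-adjusted p = 0.22 by edgeR). With 1 library left out this ran from 0.26, without ff replicate 2, to 0.60. Psmb9 was at 0.206, 0.0896 and 0.277 CPM in ff and at 0.472, 0.605 and 0.654 CPM in dcKO, also without overlap (log2 fold change 1.66, ± 0.51 SE, BH-adjusted p = 0.14 by edgeR). The ff levels of Psmb9 rested on 1, 6 and 14 expected counts, and those in dcKO on 26, 32 and 28. In 1 fit of all 14 libraries its adjusted p was 0.043 in edgeR. These 2 members were those whose groups did not overlap, a pattern shown in the higher direction by 13.5% of all genes tested.

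The other 7 members overlapped between the groups at E12.5. B2m was at 22.1, 21.6 and 26.3 CPM in ff and at 25.9, 27.7 and 28.3 CPM in dcKO, with a single dcKO library inside the ff range (log2 fold change 0.22, 95% interval -0.01 to 0.44). H2-D1 was at 17.8, 12 and 14 CPM in ff and at 26.1, 15.5 and 15.8 CPM in dcKO, where replicate 1 alone stood above ff. Its log2 fold change was 0.43 (95% interval -0.12 to 0.99), and 0.13 without that library. Tapbp was level at 21.7 to 23.8 CPM in ff and 22.8 to 24.2 CPM in dcKO (0.06, 95% interval -0.13 to 0.25). Tap1, Tap2, Psmb8 and Nlrc5 had log2 fold changes of 0.29, 0.06, 0.62 and 0.31, with 95% intervals as wide as -1.24 to 1.35 for Tap2. Their levels in ff replicate 1 rested on 4, 7, 2 and 1 expected counts, and the intervals of Tap1 and Psmb8 reach 1.04 and 1.43, beyond the changes called at E18.5.

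The difference between the stages was tested as an interaction. None of the 9 members was called in edgeR, 0 had an unadjusted p under 0.05, and DESeq2 and limma-voom called 0, beside 16.5% of all 19327 genes called in edgeR. The median interaction of the members was 0.34 on the log2 scale, beside -0.03 for all genes. For H2-K1 it was 0.48 (95% interval -0.19 to 1.15) and for Psmb9 -0.54 (-1.71 to 0.64). A larger change at E18.5 than at E12.5 was therefore not shown for any member, and the width of the intervals does not show that the changes were alike.

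**Figure D3:**
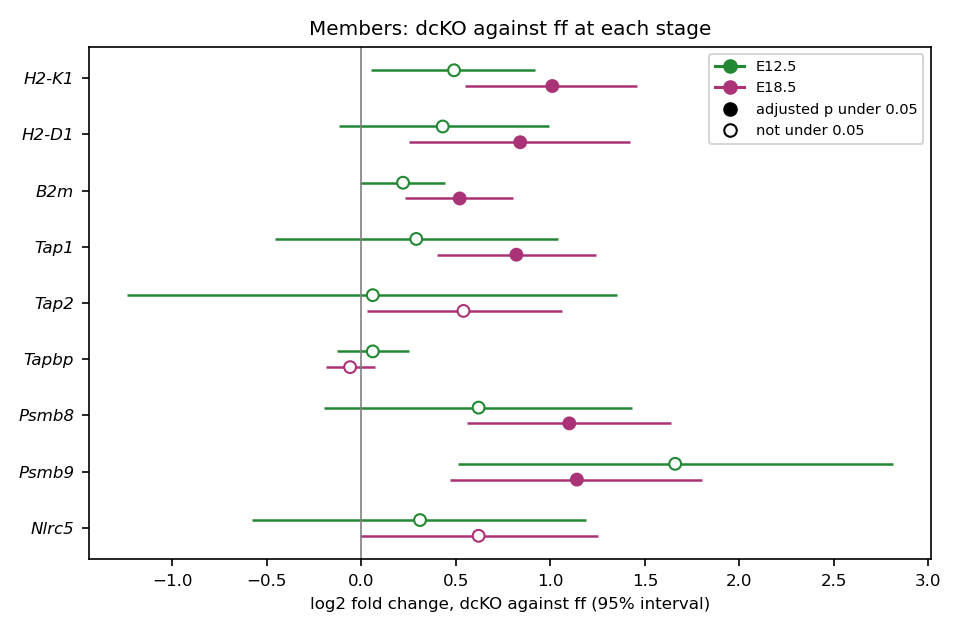
Log2 fold changes of dcKO against ff for the 9 members at E12.5 (green) and E18.5 (purple), with 95% intervals as horizontal lines. Filled points mark an adjusted p under 0.05, which 6 members reached at E18.5 and 0 at E12.5, and the intervals of the 2 stages overlap for every member.

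Between E12.5 telencephalon and E18.5 cortex of ff, which differ in stage and in dissected tissue, the set moved in both directions. By edgeR's test 4 members were higher at E18.5 (Tapbp, Psmb8, Tap2 and Psmb9) and 2 lower (H2-K1 and B2m), while 61.4% of all genes were called, 31.5% higher and 29.9% lower. H2-K1 fell from 20.3, 18.3 and 23.1 TPM to 8.50, 6.59, 7.31 and 10 TPM, without overlap. Its log2 fold change on counts was -1.21 (± 0.22 SE, BH-adjusted p = 0.00021 by edgeR). H2-D1 was at 17, 11.8 and 14.1 TPM at E12.5 and at 16.6, 15.0, 14.2 and 16.1 TPM at E18.5, with a log2 fold change of 0.13 (95% interval -0.48 to 0.74).

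In TPM, which corrects for transcript length, the 2 heavy chains thus changed places. The ratio of H2-K1 to H2-D1 in TPM was 1.46 ± 0.235 in ff at E12.5 (SD, n = 3) and 0.522 ± 0.0756 at E18.5 (SD, n = 4). The ratio itself was not tested between the stages, which come from separate tables. In TPM every one of the 6 libraries of E12.5 had more H2-K1 and every one of the 8 of E18.5 more H2-D1. In CPM, without correction for length, H2-D1 was above H2-K1 in all 14 libraries. The order at E12.5 therefore depends on the lengths used for TPM. Within a stage the ratio in dcKO, 1.57 ± 0.291 and 0.608 ± 0.0584, was not shown to differ from that in ff by an exact permutation test (two-sided p = 0.50 and 0.14). At E12.5 the test could not have passed 0.05, since 3 against 3 gives no p below 0.1. The genes share sequence: 8.11% of the 50-base words of H2-K1 and 14.32% of those of H2-D1 also occur in other genes, and their counts were fractional in 10 and 13 of the 14 libraries. The words are not shared between these 2 genes alone: 7.4% of those of H2-D1 occur in H2-Q1 and 5.31% in H2-K1. The separate levels of the heavy chains are therefore uncertain to that extent, and so is their sum.

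**Figure D4:**
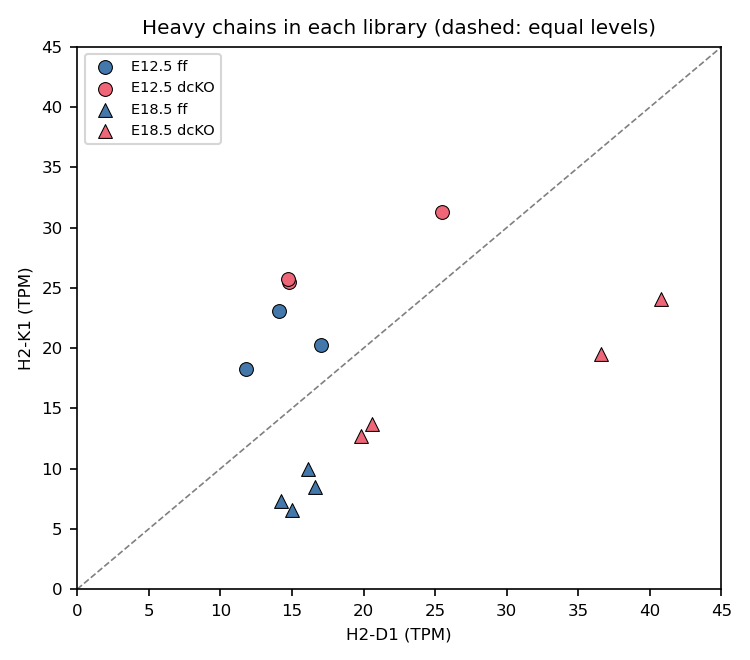
H2-K1 against H2-D1 (TPM on both axes) in each of the 14 libraries (circles E12.5, triangles E18.5; blue ff, red dcKO; dashed line, equal levels). The 6 libraries of E12.5 lie above the line and the 8 of E18.5 below it, and 2 libraries labelled dcKO at E18.5 lie far to the right.

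Tapbp rose by 0.39 on the log2 scale between the stages in ff (± 0.06 SE, BH-adjusted p = 5.4e-05 by edgeR) and B2m fell by 0.43 (± 0.13 SE, BH-adjusted p = 0.0071). Psmb8 (log2 fold change 0.94, adjusted p = 0.013 in edgeR), Psmb9 (1.09, 0.038) and Tap2 (1.14, 0.034) rose. These 3 calls were lost without ff replicate 2 at E12.5 (adjusted p = 0.056, 0.27 and 0.22 in edgeR). Psmb9 and Tap2 were each called in only 9 of the 14 fits with 1 library left out. Psmb9 was also lost without dcKO replicate 2 or 3 at E12.5 or ff replicate 3 or 4 at E18.5 (adjusted p from 0.053 to 0.083), and with no filter (0.082 in edgeR). Tap2 was also lost without ff replicate 3 at E12.5 or ff replicate 1, 3 or 4 at E18.5 (adjusted p from 0.054 to 0.080 in edgeR). On log2(TPM + 1) Psmb8 and Tap2 also missed the threshold, at 0.38 (adjusted p = 0.15 in limma) and 0.23 (0.45). B2m missed it without ff replicate 3 at E12.5 (-0.32, adjusted p = 0.068 in edgeR), and in male libraries alone (-0.23, 0.14), where Tap2 did too (0.093). Tap1 (0.65, adjusted p = 0.061 in edgeR) and Nlrc5 (0.16, 0.85) did not pass, though Tap1 was called in 3 of 14 fits with 1 library left out.

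None of the loading partners or other proteasome genes listed was called higher at E18.5. Over all genes tested 15.6% were called higher and 16.6% lower. Among 12 partners in peptide loading and trimming, such as calreticulin and calnexin, 0 were higher and 1 lower, with a list median of -0.02. The lower gene was the disulfide isomerase Pdia3 (log2 fold change -0.17, adjusted p = 0.033 in edgeR). Erap1 of that list, singled out after its values were seen, did not pass (0.44, ± 0.18 SE, BH-adjusted p = 0.083 by edgeR). Of 6 other inducible or activating proteasome genes 0 were higher and 3 lower: the maturation factor Pomp (-0.29) and the activator subunits Psme1 (-0.27) and Psme2 (-0.35). Psmb10, the inducible subunit that completes the immunoproteasome with Psmb8 and Psmb9 and which was singled out after its values were seen, was at 11.8 to 15.2 CPM in ff and 10.6 to 16.2 CPM in the libraries labelled dcKO (log2 fold change 0.03, ± 0.12 SE, BH-adjusted p = 0.88 by edgeR). Of the 14 constitutive core subunits 8 were lower and 0 higher, with a median of -0.24 (-0.13 on log2(TPM + 1)). The loading partners had a median of 0.09 and the inducible and activating genes of -0.03 on that scale, on which all genes had 0.12. Psmb5, the constitutive counterpart of Psmb8, had the lowest p (-0.45, ± 0.07 SE, BH-adjusted p = 0.00035 by edgeR), followed by Psma2 (-0.34), Psmb7 (-0.31) and Psma4 (-0.28). The core subunits' change also differed between the stages, with 12 of 14 called lower in the interaction (9.41% of all genes were) and a median of 0.13 at E12.5, where 0 were called.

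Inducible subunits remained a small fraction of the proteasome messages. The ratio of Psmb8 to Psmb5 in TPM was 0.00615 ± 0.00207 in ff and 0.0164 ± 0.00468 in the libraries labelled dcKO at E18.5 (SD, n = 4 each), and that of Psmb9 to Psmb6 was 0.00152 ± 0.000545 and 0.00396 ± 0.00135. In both ratios all 4 libraries labelled dcKO were above ff (exact permutation p = 0.0286, two-sided, the smallest possible with 4 against 4). With adjustment over the 10 ratio tests made, p was 0.143 for each, and with so few libraries no ratio could have passed 0.05 after that adjustment.

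Of 14 nonclassical class I genes tested at E18.5, 5 were higher and 0 lower, with a median of 0.62, while 15.6% of all genes were higher. H2-T22 was at 5.63 to 7.54 CPM in ff and 8.56 to 11.8 CPM in the libraries labelled dcKO (log2 fold change 0.63, adjusted p = 0.0028 in edgeR). H2-T23, which presents leader peptides of other class I molecules to natural killer cells, was at 3.86 to 4.76 and 4.88 to 6.34 CPM (0.41, adjusted p = 0.025). H2-Q7 (1.36, adjusted p = 0.020 in edgeR), the neonatal Fc receptor heavy chain Fcgrt (0.45, 0.026) and H2-M5 (0.62, 0.029) rose as well. The other 9 did not pass, with log2 fold changes from 0.08 (Mr1) to 1.05 (H2-Q1 and H2-T10). H2-Q7 and H2-T23 share 50-base words with H2-K1 and H2-D1, up to 5.99% of those of H2-D1 for H2-Q7, so reads can be split between them. Of 7 class II pathway genes tested, 1 was higher, the cathepsin Ctss (0.30, adjusted p = 0.031 in edgeR).

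Of 13 factors known to act on class I promoters 4 were higher and 2 lower at E18.5, with a median of 0.17. Over all genes 15.6% were higher and 16.6% lower. On log2(TPM + 1) the list's median was 0.29, beside 0.12 for all genes. Rfx5, a subunit of the complex on the X1 box, rose by 0.61 on the log2 scale (adjusted p = 0.00061 in edgeR), while its partner Rfxap fell by 0.25 (0.0093). The histone methyltransferase Ezh2 rose by 0.23 and the NF-Y subunit Nfyc fell by 0.21. Irf1, an activator of class I genes that was singled out after its values were seen, was at 1.92 to 2.74 CPM in ff and 2.36 to 4.4 CPM in the libraries labelled dcKO (0.62, adjusted p = 0.036 in edgeR). Irf2 completes the 4, at 0.26.

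Over all genes tested at E18.5, 15.6% were higher and 16.6% lower. Genes known to be raised by interferon were higher at E18.5 in 17 of 23 tested and lower in 0, with a median log2 fold change of 1.17. Oasl2 (1.09), Xaf1 (1.80), Isg15 (1.72) and Oas1a (1.52) had the lowest p. Their summed level was 63.8 to 91.2 TPM in ff and 140.9, 251.8, 108.7 and 148.0 TPM in replicates 1 to 4 labelled dcKO. Replicate 3 was the lowest of its group here, as it was for 8 of 9 members, and replicate 2 the highest. The low place of replicate 3 was not particular to these genes. It also had the lowest sum of its group for the nonclassical class I and class II lists. The same held for border macrophage, endothelial, meningeal fibroblast, mural cell, choroid plexus and erythroid markers. For the remaining lists, microglia, neuron and radial glia markers among them, replicate 1 or 2 was lowest. Of 17 interferon receptor and signalling genes 7 were higher and 2 lower. Irf9 (0.48), Irf8 (0.98) and Ifngr1 (0.35), a chain of the interferon gamma receptor, rose, and its other chain Ifngr2 fell by 0.70 (adjusted p = 1e-05 in edgeR). At E12.5 edgeR called 0 of 24 interferon-stimulated genes, and their median was -0.25. The interaction called 8 of 25 higher (7.12% of all genes were), among them Isg15 (2.49) and Xaf1 (1.95).

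**Figure D5:**
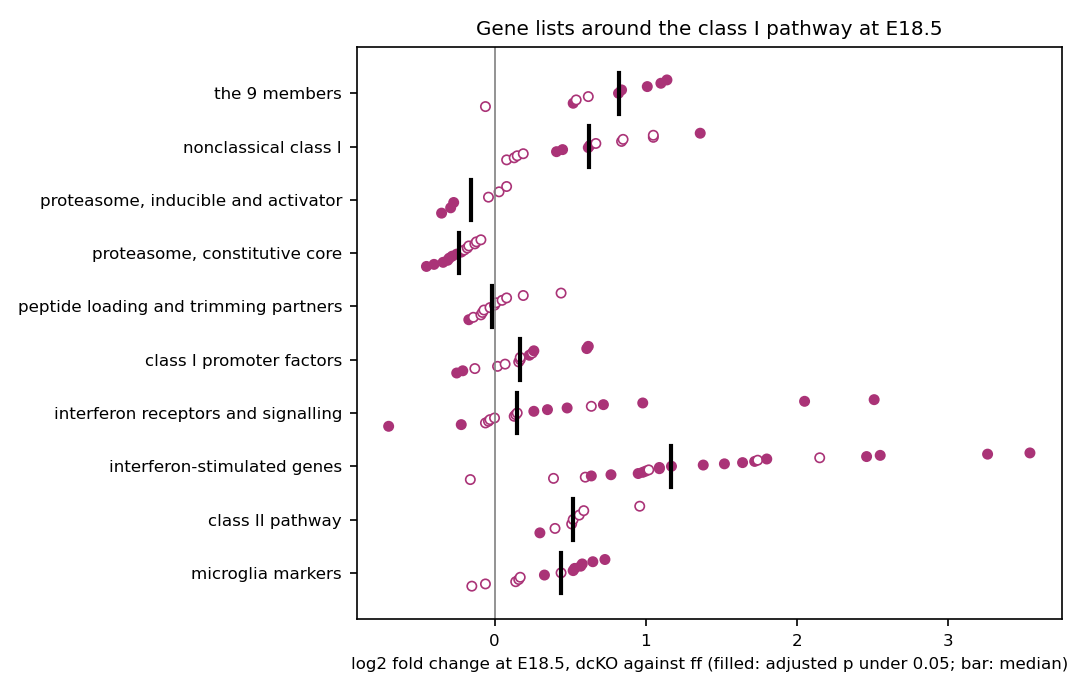
Log2 fold changes at E18.5 (x axis, libraries labelled dcKO against ff) of the tested genes of 10 lists (1 line per list; 1 point per gene, filled where the adjusted p was under 0.05; black bar, list median). The medians of the members (0.82), nonclassical class I (0.62), class II (0.52), interferon-stimulated (1.17) and microglia (0.44) lists lie right of 0. Those of the promoter factors (0.17) and of the interferon receptors and signalling genes (0.15) do so by less. Those of the loading partners (-0.02) and both other proteasome lists (-0.16 and -0.24) lie left of 0.

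Of 13 markers of microglia, cells known to carry class I molecules, 7 were higher and 0 lower in the E18.5 libraries labelled dcKO (median 0.44), while 15.6% of all genes were higher. Sall1 (0.65), which neural progenitors also express, C1qb (0.73), Csf1r (0.52) and C1qc (0.58) had the lowest p. Others of the list did not pass, among them P2ry12 (-0.15), Itgam (-0.06), Aif1 (0.14) and Tmem119 (0.16), which were singled out after their values were seen. Their summed level was 176.2 to 224.3 TPM in ff and 260.6 to 314.5 TPM in the libraries labelled dcKO, without overlap. For border macrophage, endothelial and mural cell markers the counts were near or below that share. Of 7 border macrophage markers 1 was higher, Pf4 (0.62), with sums of 52.5 to 104.9 and 97.7 to 149.5 TPM. All 7 had log2 fold changes above 0, with a median of 0.62, beside 0.44 for the microglia markers. Of 12 endothelial markers 1 was higher, Flt1 (0.39), with sums of 214.5 to 330.0 and 279.5 to 367.7 TPM, and of 9 meningeal fibroblast markers 3 were higher, with sums of 220.9 to 413.8 and 359.9 to 519.3 TPM. No marker of these 4 lists was at 0 throughout a group. Mural cell markers held 1 of 6 higher, with sums of 123.4 to 199.6 and 167.5 to 227.5 TPM, and choroid plexus and erythroid markers 0 of 7 and 0 of 6. Lymphocyte and natural killer cell markers summed to 1.29 to 2.01 TPM in ff and 1.62 to 8.11 TPM in the libraries labelled dcKO, with 0 of 3 tested called. Ncr1 was at 0 in both groups, and Cd3d, Cd8a and Nkg7 were at 0 in the libraries labelled dcKO. Neuron markers held 1 of 7 higher and 6 lower, and radial glia markers 6 of 8 higher. Neuron markers summed to 5778.5 to 5932.3 TPM in ff and 3805.6 to 4367.8 TPM in the libraries labelled dcKO. The sums of radial glia markers were 2158.3 to 2272.7 and 2320.1 to 2591.1 TPM. In both lists the groups did not overlap. The part of these cell types in the change of the class I genes was not tested.

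At E12.5, where no member was called, microglia markers summed to 143.1 to 172.3 TPM in ff and 149.4 to 156.6 TPM in dcKO. Sall1 was the 1 marker of that list called, and it was lower.

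Over the 8 libraries of E18.5 the members varied together, apart from Tapbp. Pearson's r of log2 CPM between pairs of members had a median of 0.78 over the 36 pairs, from -0.33 to 0.95 (B2m with Tap2). Tapbp had a median r of -0.11 with the other 8, and the next lowest, Tap1, had 0.72. The mean of the members' z-scores was -0.49, -1.13, -0.52 and -0.27 in ff replicates 1 to 4 and 0.72, 1.09, -0.31 and 0.91 in replicates 1 to 4 labelled dcKO. By this mean, which includes Tapbp, replicate 3 labelled dcKO lay among the ff libraries. Taken gene by gene, it was above every ff library for H2-K1, H2-D1, B2m, Tap1, Psmb8 and Psmb9, narrowly so for H2-D1 and B2m. It was within the ff range for Tap2 and Nlrc5 and below that range for Tapbp. These libraries differ in genotype, depth and cell makeup, and the values describe them with no test.

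The non-member genes whose log2 CPM followed that mean most closely over the 8 libraries were Lgals3bp (r = 0.982), Id1 (0.982), Nxn (0.976), H2-T23 (0.974) and Chchd10 (0.974). Lgals3bp, a secreted glycoprotein of the interferon-stimulated list, was at 6.49, 4.41, 5.39 and 6.68 CPM in ff and at 14.1, 16.8, 6.24 and 12.3 CPM in the libraries labelled dcKO. Id1, an inhibitor of basic helix-loop-helix factors, was at 13.9 to 17.9 CPM in ff and at 21.6, 24.4, 18.2 and 24.2 CPM in the libraries labelled dcKO. In both genes replicate 3 was the lowest of its group. Both were picked for following the members' mean, in which replicate 3 was also lowest of that group, so this adds no further observation.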

How the data were processed

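Per the labels' protocols, RNeasy Mini columns were used for RNA and TruSeq Stranded mRNA reagents for the libraries. The submitters' processing notes name Trim Galore, STAR, RSEM and DESeq2, without versions. The aligner settings, genome build and strand setting are not given in the sources used here. The authors deposited an expected count table and a TPM table per stage, both from RSEM by gene. Log2 fold changes, p-value and adjusted p columns of the authors' DESeq2 comparisons were named per the file headers.

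The 9 members and all gene lists were chosen with earlier results of these data known. Rounded expected counts went into edgeR 4.0.16 under R 4.3.3 (filterByExpr, TMM, robust quasi-likelihood F test, Benjamini-Hochberg over all genes tested, threshold 0.05), with limma 3.58.1 and DESeq2 1.42.0 as alternatives. Each stage was fitted separately, and a joint fit of the 4 groups gave the interaction and the stage difference. CPM were TMM-scaled counts per 1000000 counts and log2 CPM used a prior count of 2. Low depth in 1 library per stage limits the precision of the rarest members. Ratios of TPM were tested on the log2 scale by exact permutation, two-sided. Genes named were the 9 members, up to 4 per list with the lowest p among those called, and the 5 most like the members' mean z-score. Others are said to be picked later. The TATA letters and 1 other motif were searched and are not reported here. Shared sequence was counted as 50-base words of GENCODE M21 transcripts. Alternatives were other scalings, filters and tests, sex as a covariate, a length and GC correction, log2(TPM + 1), 1 fit of all libraries, and each library left out in turn. Male libraries alone, both shallow libraries left out and E18.5 dcKO replicates 2 and 4 alone were added after the data were seen. On simulated counts the E18.5 steps recovered 70% of genes changed 1.5-fold and 76% of those changed 2-fold, with 15 false calls among 17974 genes. At E12.5 these were 37%, 52% and 8 among 17853.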

Additional observations from a re-analysis of the deposited data

How the results depend on the processing

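At E18.5 the 6 called members became 3 with sex as a covariate and 3 in male libraries alone, and 5 to 6 with 1 library left out. It was 5 by limma-voom and with no filter, where H2-D1 was lost, and 5 at a mean of at least 1 CPM, where Psmb9 was not tested. At E12.5 the count of 0 became 1 in 1 fit of all 14 libraries and was 0 in the other fits run. The stage difference in ff, with 6 called members, gave 3 to 7 with 1 library left out. Of 773 member values recomputed under an alternative, 727 kept their direction and their side of the threshold, 31 were no longer called, 5 were newly called and 10 changed sign. Tap2 at E12.5 was at -0.046 by the DESeq2 Wald test, -0.033 with no filter, -0.147 on log2(TPM + 1) and -0.51 to 0.42 with 1 library left out, below 0 without ff replicate 2 or dcKO replicate 1. Tapbp at E18.5 was at 0.031 on log2(TPM + 1). In the interaction, log2(TPM + 1) gave 0.024 for Tapbp, 0.11 for Psmb9 and -0.0008 for Nlrc5, and Nlrc5 ran from -0.056 to 0.43 with 1 library left out, below 0 without E12.5 ff replicate 2. The cause of these changes was not tested.

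Over all genes, the 34 called at E12.5 became 56 with DESeq2 size factors, 1209 by the DESeq2 Wald test, 205 by limma-voom, 244 with no filter, 9 at a mean of at least 1 CPM, 3 with sex as a covariate, 98 after the length and GC correction, 1 on log2(TPM + 1), 1079 in 1 fit of all 14 libraries, 6 in male libraries alone, and 0 to 571 with 1 library left out (0 without dcKO replicate 2 or 3). The interaction called 1690 to 3307 genes with 1 library left out, against 3195. On log2(TPM + 1) the share of E18.5 calls that were higher was 76.7% against 48.5%, with a median shift of all genes of 0.12. The interaction's share was 81.6% on that scale and 32.9% after the length and GC correction, against 43.1%. No paired analysis was possible because the columns carry no replicate number shared between ff and dcKO.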
